A study of Mus musculus with 10 samples.

Results

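Expression of 10 semaphorins, Sema3a, Sema3c, Sema3f, Sema3g, Sema4a, Sema4d, Sema6a, Sema6b, Sema6d and Sema7a, was measured in the abdominal aorta of mice with dermatitis. All probe sets annotated to exactly 1 of these 10 gene symbols were taken, which gave 24 probe sets of the 45037 on the array, or 10 of 18193 genes. The 10 genes were selected on their signals on these same arrays, with the difference of Sema6b between KCASP1Tg and WT already known, so every difference of a semaphorin among these 10 between KCASP1Tg and WT is given as a description, and counts of calls among them support nothing. GeneChip Mouse Genome 430 2.0 arrays were hybridized with RNA from the abdominal aorta of 6 KCASP1Tg mice and 4 wild-type (WT) mice, 1 array per mouse, at 4 months (16 weeks) of age. The KCASP1Tg mice were female and carry human caspase-1 under the keratin 14 promoter, which is active in keratinocytes of the skin, and they develop dermatitis. The WT mice were littermates of the C57BL/6 background without the transgene. The labels number each array as a mouse of its own and call the tissue dechorionated, while the methods count fewer mice than arrays, so that a p-value measures the spread between these arrays.

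Semaphorins are secreted, membrane-bound or lipid-anchored proteins that share a sema domain. They steer axons and also act on endothelial cells, smooth muscle and leukocytes. The receptors are plexins, which switch off small GTPases of the Ras family and loosen the hold of a cell on its substrate, and the secreted class 3 members mostly need a neuropilin as partner, a receptor that also binds vascular endothelial growth factors.

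Each value below is a MAS5.0 signal, the brightness of a probe set after background and mismatch correction, with each array scaled to the same trimmed mean of 500. Probe sets that reached 100 on 4 arrays or more were tested, and a probe set was called at a limma adjusted p under 0.05. The median signal was 128.6 to 155.9 on the KCASP1Tg arrays and 128.6 to 142.8 on the WT arrays. The defining markers of arterial smooth muscle were present on every array, with a summed signal of 30095 to 80797 in KCASP1Tg and 69757 to 79886 in WT aorta. Of these 5 genes 0 were called, beside 0.0895% of all genes tested. Transcripts of other tissues were also present: the 6 neutrophil markers summed to 6266 to 57350 in KCASP1Tg and 361 to 495 in WT aorta, and the 3 liver markers to 136 to 2961 in KCASP1Tg and 1369 to 88307 in WT aorta. KCASP1Tg 4 stood apart, with the lowest smooth muscle sum and the highest neutrophil sum. In RNA from a whole vessel, more cells of a type and more RNA per cell cannot be told apart.

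Of the 24 probe sets, 12 had a higher and 12 a lower mean in KCASP1Tg aorta, with a median log2 difference of 0.04, beside 0 over all 26242 probe sets tested. By gene, with the brightest probe set of each, 5 were higher and 5 lower, with a median of 0.02. Of the 24, 17 passed the signal filter, and each of the 10 genes had at least 1 that passed. In the fit over all probe sets, 1 of the 24, that of Sema6b, was among those called higher, which were 0.0686% of all tested, and 0 of the 24 were called lower, as were 0% of all tested. The 6 KCASP1Tg signals all lay above the 4 WT signals for 2 probe sets, 1 of Sema6b and 1 of Sema3f, against 1.98% of all tested probe sets, and all below them for 0, against 0.949%. Since the genes were taken with these differences known, nothing was read from these counts.

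**Figure D1:**
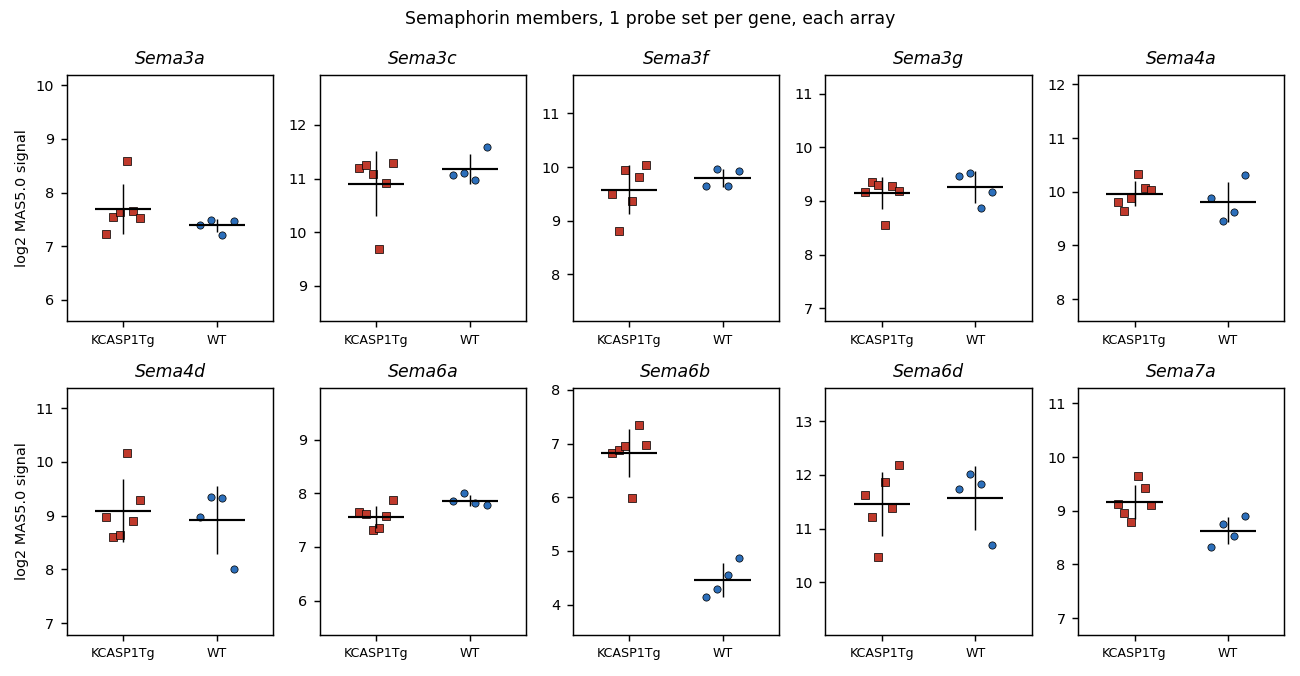
Log2 of the MAS5.0 signal (y axis) of the brightest probe set of each of the 10 semaphorins on each KCASP1Tg array (squares, n = 6) and each WT array (circles, n = 4), with the mean as a horizontal line and the SD as a vertical line. The Sema6b points of KCASP1Tg mice, with a mean of 6.83, lie apart from those of WT mice, with a mean of 4.46, and the points of the other 9 genes overlap.

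Sema6b, a membrane-bound semaphorin of class 6 that signals through class A plexins, had the largest difference among the 24 probe sets. Its signal ran from 63.4 through a median of 121 to 162 on the KCASP1Tg arrays, against 17.6, 19.7, 23.5 and 29.1 on WT 1 to WT 4. The groups did not overlap, and the lowest KCASP1Tg array was KCASP1Tg 4. The mean signal was 118 ± 31.8 in KCASP1Tg aorta (SD, n = 6) and 22.5 ± 5.04 in WT aorta (SD, n = 4), a log2 difference of 2.36 with a standard error of 0.24. Sema6b was dim on every WT array, well under the filter of 100, and it passed the filter only through 5 KCASP1Tg arrays. The size of the difference depended on the transformation, and with a pseudocount of 50 it was 1.19 on the log2 scale. The array holds 1 probe set for Sema6b, so that no other probe set could be set beside it.

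Markers of blood cells are given beside it. All 6 neutrophil markers were higher on every KCASP1Tg array than on any WT array, beside 282 of the 12295 genes tested. Of the 6, 2 were called, S100a8 and S100a9, beside 0.0895% of all genes tested. The paper had named S100a8, S100a9 and Camp as raised from these same arrays, so their differences were known beforehand. The 6 platelet and megakaryocyte markers all had a positive difference and summed to 3944 to 17738 in KCASP1Tg and 3025 to 4972 in WT aorta, the 4 measured erythroid markers summed to 983 to 7133 in KCASP1Tg and 330 to 966 in WT aorta, and the 5 macrophage markers summed to 12775 to 38166 in KCASP1Tg and 9006 to 13759 in WT aorta. Of the platelet, erythroid and macrophage markers 0 were called, and the summed ranges of platelets and macrophages overlapped between the groups. No summed level was at 0. On KCASP1Tg 4 Sema6b was at its lowest among KCASP1Tg mice. Of the KCASP1Tg arrays it had the highest neutrophil and macrophage sums, and the lowest platelet and erythroid sums, 3944 and 983. After the genotype means were subtracted, the r of Sema6b was -0.758 with neutrophils, -0.781 with macrophages, 0.583 with platelets and 0.477 with erythroid cells. Without KCASP1Tg 4 and KCASP1Tg 5 these r were 0.165, -0.367, -0.438 and -0.464. The Sema6b difference was 2.53 without KCASP1Tg 4. It was 2.25 without WT 1 and WT 3, the arrays with the most liver transcripts, and 2.48 without WT 4, KCASP1Tg 1 and KCASP1Tg 2, those with the most heart muscle transcripts. The part of neutrophils, platelets, erythroid cells and macrophages in the Sema6b signal was not tested.

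Over the 10 arrays, the genes whose log2 signals ran most alike with that of Sema6b were Ccl8, a chemokine for monocytes (r = 0.927), Car2, a carbonic anhydrase (r = 0.926), Hbb-b2, a chain of haemoglobin (r = 0.91), Tmem40 (r = 0.91) and Spry1, an inhibitor of receptor tyrosine kinase signalling (r = 0.907). These r are descriptions across arrays that share the 2 genotypes. The log2 difference between KCASP1Tg and WT was 2.16 for Ccl8, 2.04 for Car2, 2.06 for Hbb-b2, 0.92 for Tmem40 and 0.35 for Spry1. Once the mean of each genotype was subtracted, other genes were most alike: Frem2, a protein of basement membranes (r = 0.954), Afap1, which binds actin filaments (r = 0.949), ND5, a mitochondrial subunit of complex I (r = 0.944), Sh3bgrl (r = 0.942) and Rom1 (r = 0.939). Without KCASP1Tg 4 and KCASP1Tg 5, the arrays farthest from the centre for Sema6b, these r lay between 0.729 for Rom1 and 0.913 for Frem2. Frem2 differed by -0.66 between KCASP1Tg and WT aorta, the opposite sign to Sema6b. Of the summed marker lists, smooth muscle and adipocytes had the highest r with Sema6b after the genotype means were subtracted, 0.816 and 0.799. T cells and B cells had the lowest, -0.846 and -0.898. Without the same 2 arrays these r were 0.421, 0.379, -0.281 and -0.577.

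The sequence upstream of Sema6b is shown since it was the gene among the 10 whose KCASP1Tg and WT arrays lay farthest apart. The arrays measured no binding or activity there. The 250 bases before each of the 2 annotated starts, on the minus strand of chromosome 17 in RefSeq's mouse build GRCm38.p6, were read 5′ to 3′, with the GC box GGGCGG in capitals, the motif of Sp1-like factors.
Sema6b, chr17:56140344-56140593: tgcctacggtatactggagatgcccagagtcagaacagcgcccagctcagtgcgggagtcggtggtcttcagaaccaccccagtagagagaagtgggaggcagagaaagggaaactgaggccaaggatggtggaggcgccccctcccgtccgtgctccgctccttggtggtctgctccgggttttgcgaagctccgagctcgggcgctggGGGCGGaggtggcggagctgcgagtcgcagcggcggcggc
Sema6b, chr17:56133853-56134102: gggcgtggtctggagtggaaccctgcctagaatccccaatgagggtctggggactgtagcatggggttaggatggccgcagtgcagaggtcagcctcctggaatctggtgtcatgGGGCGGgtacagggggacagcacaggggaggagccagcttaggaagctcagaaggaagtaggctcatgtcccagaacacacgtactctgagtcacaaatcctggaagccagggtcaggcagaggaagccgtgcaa
Each window held 1 GC box, searched on both strands, with a GC content of 66.0% in the first and 59.2% in the second. Of 32851 such windows of all mouse genes, 32.7% held a GC box, and so did 10 of the 15 windows of the 8 semaphorins with an entry. The second window also held the letters CCAAT, found in 33.8% of all windows and 4 of the 15, and the letters TATAAA were in 12.4% of all windows and 0 of the 15. A match is a stretch of letters and not a measured site.

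The secreted class 3 members gave a mixed picture. Sema3f, a repellent of axons and endothelial cells that binds neuropilin-2, was measured by 3 probe sets that did not run together. For 1420508_at the KCASP1Tg arrays ran from 117 through a median of 163 to 176, against 75.8, 94.5, 92 and 57.1 on WT 1 to WT 4. The groups did not overlap, and the log2 difference was 0.96 with a standard error of 0.17. For 1425840_a_at the KCASP1Tg signals were 167 to 355 with a median of 327, and the WT signals 266, 265, 203 and 225, so that the groups overlapped through KCASP1Tg 4, the lowest of all 10 arrays. The difference was 0.30 with a standard error of 0.21. The brightest, 1438947_x_at, whose name marks probes that can match other sequences, differed by -0.22 with a standard error of 0.23, with KCASP1Tg signals of 450 to 1047 and WT signals of 798 to 998. After the genotype means were subtracted, the r between the 3 probe sets were -0.156, 0.254 and -0.311, so that no single direction could be given for Sema3f.

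**Figure D2:**
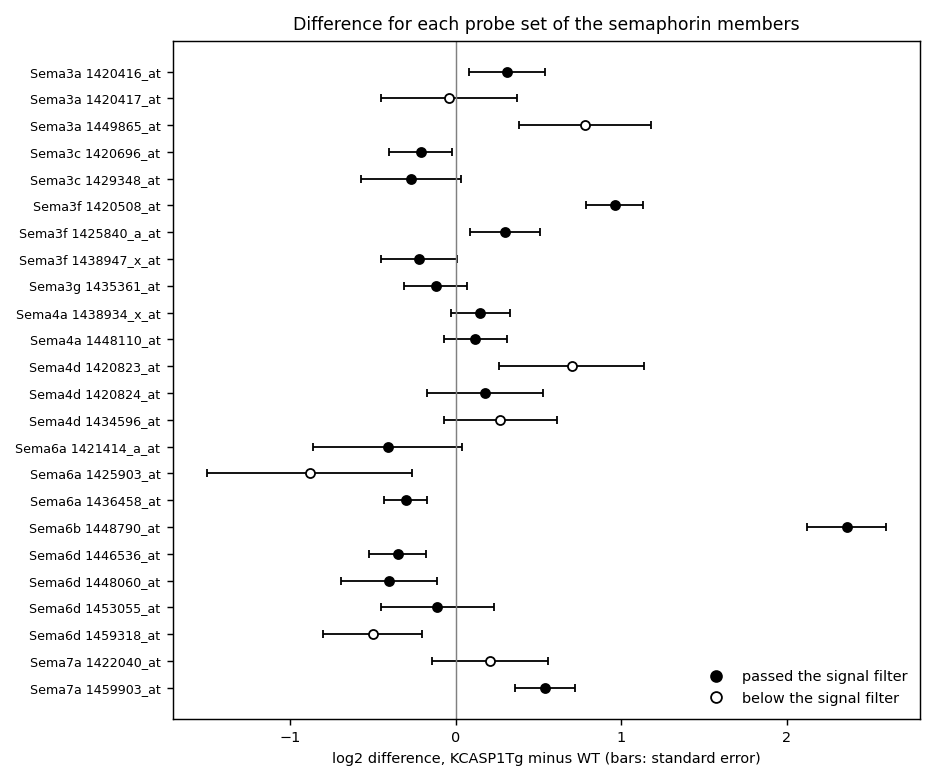
Difference of the mean log2 signal, KCASP1Tg minus WT (x axis), for each of the 24 probe sets (y axis), with the standard error as bars. Filled points passed the signal filter and open points did not. Sema6b, at 2.36, and Sema3f 1420508_at, at 0.96, are farthest to the right, and the 3 probe sets of Sema3f lie on both sides of 0.

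Sema3a, the classic repellent of axons, which binds neuropilin-1, had a signal of 149 to 385 with a median of 193 on the KCASP1Tg arrays, against 168, 179, 148 and 177 on WT 1 to WT 4. Apart from KCASP1Tg 4, at 385, the KCASP1Tg arrays lay between 149 and 202, and the log2 difference of 0.31 (standard error 0.23) was 0.13 without it. The other 2 probe sets of Sema3a did not pass the filter and differed by 0.78 and -0.04. Sema3c, which takes part in the growth of the outflow tract and great arteries, showed the reverse on that array. Its brighter probe set ran from 828 through 2256 to 2492 on the KCASP1Tg arrays, against 2148, 2190, 2001 and 3065 on WT 1 to WT 4. The 828 was KCASP1Tg 4, and the log2 difference of -0.27 (standard error 0.30) became -0.03 without it. The other probe set of Sema3c differed by -0.21 (standard error 0.19). Sema3g, a neuropilin-2 ligand found in endothelium of arteries and in fat, had 375 to 657 with a median of 601 in KCASP1Tg aorta and 705, 739, 469 and 574 in WT aorta. KCASP1Tg 4 was again the lowest, and the difference of -0.12 (standard error 0.19) was 0 without it.

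The members of class 4 are membrane proteins of leukocytes as well as other cells. Sema4a, which helps to prime T cells, had 803 to 1285 with a median of 1000 on the KCASP1Tg arrays, against 943, 703, 784 and 1273 on WT 1 to WT 4, and the groups overlapped over nearly the whole range. Its 2 probe sets differed by 0.15 and 0.12 (standard errors 0.18 and 0.19) and ran together, with an r of 0.887 after the genotype means were subtracted. Sema4d, known as CD100 on T cells, signals through plexin-B1 and binds CD72 on B cells. Its brightest probe set had 389 to 1146 with a median of 491 on the KCASP1Tg arrays, against 506, 648, 646 and 256 on WT 1 to WT 4. The highest array was KCASP1Tg 4 and the lowest WT 4. The difference of 0.18 (standard error 0.35) was -0.03 without KCASP1Tg 4, and went as low as -0.12 with a single array left out. On KCASP1Tg 4 the T cell markers summed to 4570, against 349 to 702 on the other KCASP1Tg arrays and 353 to 526 on the WT arrays, and the measured B cell markers to 9378, against 326 to 1233 on the other KCASP1Tg arrays and 257 to 697 on the WT arrays. The part of lymphocytes in the Sema4d signal was not tested. The other 2 probe sets of Sema4d did not pass the filter, with differences of 0.70 and 0.27.

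Sema6a and Sema6d belong to the same class as Sema6b, and all 7 of their probe sets had a difference below 0. Sema6a, a ligand of plexin-A2 and plexin-A4, had a signal of 160 to 234 with a median of 194 on the KCASP1Tg arrays, against 231, 257, 227 and 219 on WT 1 to WT 4. Only KCASP1Tg 6, at 234, reached the WT range, and the log2 difference was -0.30 with a standard error of 0.13. The other probe sets of Sema6a differed by -0.41 (standard error 0.45) and -0.88, and the probe set at -0.88 did not pass the filter. Sema6d, a ligand of plexin-A1 that acts in the growth of the heart, had 1416 to 4629 with a median of 2926 on the KCASP1Tg arrays, against 3397, 4158, 3663 and 1659 on WT 1 to WT 4. The spread within each genotype was far wider than the difference of -0.11 (standard error 0.34), which ran from -0.41 to 0.10 under other settings. The other 3 probe sets of Sema6d differed by -0.35, -0.40 and -0.50, the last of them below the filter.

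Sema7a is held in the membrane by a lipid anchor and signals through plexin-C1 and the integrin of alpha-1 and beta-1 chains, for example on monocytes. Its signal ran from 440 through 552 to 802 in KCASP1Tg aorta, against 322, 431, 370 and 478 on WT 1 to WT 4. KCASP1Tg 3, at 440, was the only KCASP1Tg array inside the WT range. The mean was 588 ± 133 in KCASP1Tg aorta (SD, n = 6) and 400 ± 68.3 in WT aorta (SD, n = 4), a log2 difference of 0.54 with a standard error of 0.18. The second probe set of Sema7a did not reach 100 on any array and differed by 0.21.

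The members varied in 2 patterns within the genotypes. In the first, KCASP1Tg 4 was set apart: Sema3a and Sema4d were high on it, and Sema3c, Sema3g and Sema6b were low. After the genotype means were subtracted, Sema3c and Sema6b had an r of 0.793 and Sema3a and Sema3c of -0.838. Sema3c followed the smooth muscle sum with an r of 0.924, which was 0.474 without KCASP1Tg 4 and WT 3. Sema3a had an r of 0.893 with the neutrophil sum, 0.862 with T cells, 0.809 with macrophages and -0.896 with smooth muscle. Without KCASP1Tg 4 and KCASP1Tg 1 these r of Sema3a were 0.488, 0.291, 0.572 and -0.168. In the second pattern, Sema6d was low on KCASP1Tg 3 and WT 4, with 1416 and 1659, and high on KCASP1Tg 6. Sema4f, another class 4 semaphorin, ran with it at an r of 0.993, Crmp1 and Dpysl2, which relay semaphorin signals to the cytoskeleton of axons, at 0.991 and 0.983, and the receptors Plxnc1 and Plxna3 at 0.985 and 0.965. Without KCASP1Tg 3 and WT 4 these r were 0.982 for Sema4f, 0.964 for Crmp1, 0.938 for Dpysl2, 0.956 for Plxnc1 and 0.853 for Plxna3. The Schwann cell gene Sox10 was also lowest on these arrays, with 272 on KCASP1Tg 3 and 215 on WT 4, against 396 to 1053 on the other KCASP1Tg arrays and 810 to 913 on the other WT arrays. The 2 measured Schwann cell markers of 4, Sox10 and Mbp, summed to 3504 on KCASP1Tg 3, within 3504 to 7454 over the KCASP1Tg arrays, and to 3587 on WT 4, within 3587 to 10626 over the WT arrays. Sema4d, also lowest on WT 4, had an r of 0.79 with Sema6d after the genotype means were subtracted. Its r was 0.627 with the Schwann cell sum, 0.666 with the T cell sum and 0.621 with the B cell sum. Without KCASP1Tg 4 and WT 4 these 3 r of Sema4d were 0.852, 0.412 and 0.218. The part of nerve tissue in the Sema6d and Sema4d signals was not tested.

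**Figure D3:**
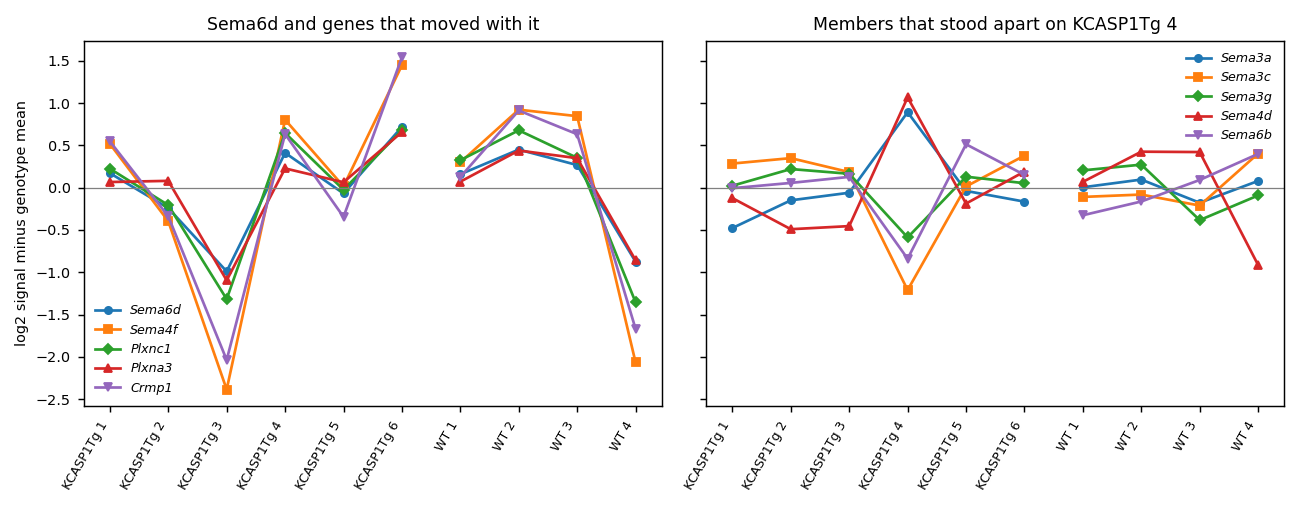
Log2 signal minus the mean of the genotype (y axis) on each array (x axis). The left panel shows Sema6d with Sema4f, Plxnc1, Plxna3 and Crmp1, which dip together on KCASP1Tg 3 and WT 4. The right panel shows Sema3a, Sema3c, Sema3g, Sema4d and Sema6b, which part on KCASP1Tg 4, where Sema3a and Sema4d are high and the other 3 low.

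For the other members, the genes most alike after the genotype means were subtracted were Gng2 and Ap1s2 for Sema6d (r = 0.996 and 0.994), Npnt and Cspg4, a proteoglycan of pericytes, for Sema3c (both 0.979), Efna2 and Sox18, a transcription factor of endothelium, for Sema3g (0.952 and 0.925), and Lgmn, a lysosomal protease, and Mapk1ip1l for Sema4d (0.984 and 0.979). For Sema3a they were Cdk9 and Sh3bp1 (0.981 and 0.973), for Sema3f Sema4c and Invs (0.94 and 0.926), for Sema4a Proser1 and Unc119b (0.937 and 0.905), for Sema6a Dipk1b and Sync (0.978 and 0.97), and for Sema7a Polr3b and Btbd9 (0.955 and 0.922). All are r over the 10 arrays and carry no test. Without the 2 arrays farthest from the median of each member, these r ran from 0.703 for Invs to 0.986 for Ap1s2. Efna2 and Sox18 were then at 0.725 and 0.709. The summed endothelial markers had an r of 0.464 with Sema3g, and of 0.048 without KCASP1Tg 4 and WT 3.

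The receptors were not used to choose the members, so they were tested in the fit over all probe sets, with the brightest probe set for each gene. Of the 11 plexin and neuropilin genes 0 were called by limma, where 0.0895% of all genes tested were, and 0 were at an unadjusted p under 0.05, where 8.09% of all genes were. The exact Mann-Whitney test could not call any gene, since its smallest p of 0.00952 cannot pass the adjustment here. It gave 1 of the 11, Plxnd1, an unadjusted p under 0.05, beside 987 of the 12295 genes tested. The log2 differences ran from -0.26 for Plxna4 to 0.17 for Plxnb2, with a median of -0.06, beside 0 over all genes tested. Plxnd1, the receptor of Sema3e in endothelium, came nearest to the threshold. Its signal was 1369 to 1682 on the KCASP1Tg arrays, with a mean of 1532 ± 120 (SD, n = 6), and 1800, 1824, 1736 and 1633 on WT 1 to WT 4, with a mean of 1748 ± 85.2 (SD, n = 4). The groups overlapped through WT 4, and the difference of -0.19 (standard error 0.10) had an adjusted p of 0.678 from limma. Plxna1, Plxna2 and Plxna4, class A plexins that bind class 6 semaphorins, differed by 0.15 (standard error 0.19, limma adjusted p = 0.923), 0.03 (standard error 0.15, limma adjusted p = 0.994) and -0.26 (standard error 0.26, limma adjusted p = 0.899). Plxna3 and Plxnc1 differed by -0.21 and -0.06 (limma adjusted p = 0.956 and 0.996). The class B plexins Plxnb1, Plxnb2 and Plxnb3, of which the first is the receptor of Sema4d, differed by -0.04, 0.17 and -0.18 (limma adjusted p = 0.994, 0.802 and 0.904). Nrp1, the partner receptor of Sema3a, had a mean of 5093 ± 1157 in KCASP1Tg aorta (SD, n = 6) and 5707 ± 540 in WT aorta (SD, n = 4), and Nrp2, that of Sema3f and Sema3g, had 1207 ± 131 in KCASP1Tg aorta (SD, n = 6) and 1116 ± 127 in WT aorta (SD, n = 4). Their limma adjusted p-values were 0.879 and 0.906.

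**Figure D4:**
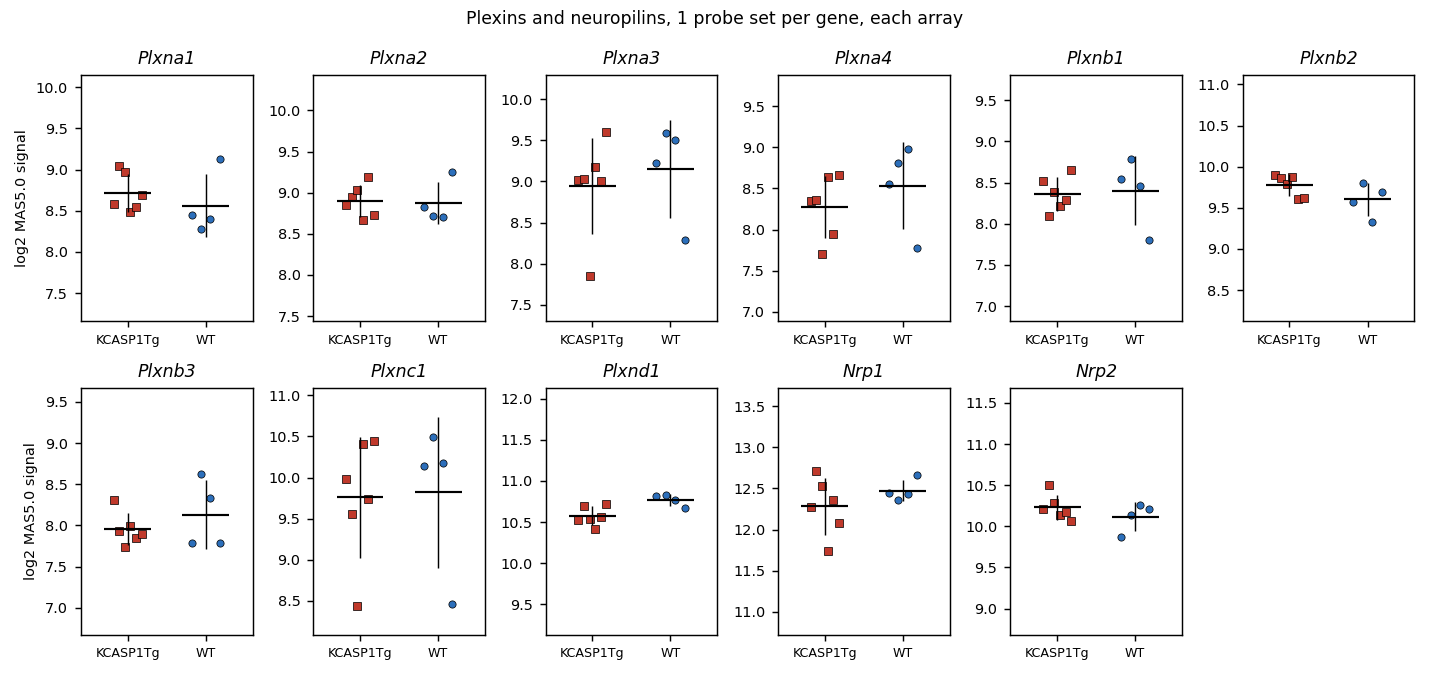
Log2 of the MAS5.0 signal (y axis) of the brightest probe set of each of the 11 plexin and neuropilin genes on each KCASP1Tg array (squares, n = 6) and each WT array (circles, n = 4), with the mean as a horizontal line and the SD as a vertical line. The groups overlap for all 11, and Plxna3 and Plxnc1 are lowest on KCASP1Tg 3 and WT 4.

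Among the receptors of other kinds, 3 of 4 were tested and 0 were called, beside 0.0895% of all genes tested. Cd72, the B cell receptor of Sema4d, differed by 0.90 (standard error 0.60, limma adjusted p = 0.785) and was at 901 on KCASP1Tg 4, against 78.7 to 179 on the other KCASP1Tg arrays and 72.2 to 107 on the WT arrays. Itga1 and Itgb1, the integrin chains that bind Sema7a, differed by -0.13 and 0.10 (limma adjusted p = 0.917 and 0.951).

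Of the 10 semaphorins outside the members, 8 were tested and 0 were called by limma, beside 0.0895% of all genes tested, and 1, Sema3e, was at an unadjusted p under 0.05, beside 8.09% of all genes. Sema3e, which repels endothelial cells through plexin-D1 without a neuropilin, had a signal of 90 to 121 on the KCASP1Tg arrays, against 214, 191, 207 and 109 on WT 1 to WT 4. All KCASP1Tg arrays were below WT 1 to WT 3, and WT 4 lay among them. The mean was 103 ± 11.5 in KCASP1Tg aorta (SD, n = 6) and 180 ± 48.3 in WT aorta (SD, n = 4), a log2 difference of -0.77 (standard error 0.19) with a limma adjusted p of 0.261. Without WT 4 the difference was -0.99 with a limma adjusted p of 0.0361. With all arrays and array weights it was -0.88 with a limma adjusted p of 0.0152, so that the call depended on the setting. Another tested probe set of Sema3e, 1419717_at, differed by -0.93 (limma adjusted p = 0.665), and those below the filter by -1.08 and -0.04. Sema3b, Sema4b and Sema4c followed with -0.42, -0.37 and 0.29 (limma adjusted p = 0.733, 0.815 and 0.875).

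Downstream of the plexins, 0 of 20 signalling genes were called by limma, beside 0.0895% of all genes tested. Of the 20, 7 had a positive and 13 a negative difference, with a median of -0.10, beside 6167 positive and 6128 negative of the 12295 genes tested. Farp2, an activator of Rac that leaves plexin-A1 when Sema3a binds, was the 1 of the 20 at an unadjusted p under 0.05, beside 8.09% of all genes, with 206 ± 17.9 in KCASP1Tg aorta (SD, n = 6) and 253 ± 26.8 in WT aorta (SD, n = 4), a log2 difference of -0.29 and a limma adjusted p of 0.531. Mical2, which oxidises actin, differed by -0.45 and Limk1, which phosphorylates cofilin, by 0.27 (limma adjusted p = 0.828 and 0.881). Of the 4 proteases that cut semaphorins, Furin, Adam10, Adam17 and Mmp14, 0 were called, and the differences lay between -0.13 and 0.10 with a smallest limma adjusted p of 0.919.

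Neuropilins also serve the vascular endothelial growth factors, and 0 of 7 genes of that family were called by limma, beside 0.0895% of all genes tested. Vegfc, which drives the growth of lymphatic vessels and binds neuropilin-2, had 264 to 371 with a median of 324 on the KCASP1Tg arrays, against 477, 506, 442 and 518 on WT 1 to WT 4. The groups did not overlap, and 128 of the 12295 genes tested were likewise lower in KCASP1Tg aorta without overlap. The second tested probe set with the same pattern, 1419417_at, had 104 to 139 on the KCASP1Tg arrays and 176, 205, 212 and 195 on WT 1 to WT 4. The log2 differences were -0.60 (standard error 0.11, limma adjusted p = 0.117) and -0.69 (limma adjusted p = 0.0995), so that neither passed the test over all probe sets. Another probe set of Vegfc overlapped between the groups, with 185 to 334 on the KCASP1Tg arrays and 229 to 354 on the WT arrays. Pgf, Flt4 and Vegfa differed by 0.80, 0.17 and 0.23 (limma adjusted p = 0.649, 0.872 and 0.917).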

How the data were processed

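RNA of the abdominal aorta of 6 KCASP1Tg and 4 WT mice was hybridized to 1 array each. The deposited values are linear MAS5.0 intensities, which the authors had brought to a trimmed mean of 500 on all arrays. Control probe sets (64) were left out of the 45101. In the platform annotation 34945 of the rest carry 1 gene symbol, 932 several and 9160 none. Of the 34945 probe sets, 34741 were matched to RefSeq's gene table, whose symbol was then used. Detection calls were not used here.

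Values under 1 were raised to 1 and log2 was taken. Probe sets reaching 100 on 4 or more arrays (26242) entered a limma fit (3.58.1, R 4.3.3) with genotype as its term, and two-sided p-values were adjusted over all of them (Benjamini-Hochberg). The steps were tested on simulated data. A gene was represented by its probe set of highest mean signal. The members and gene lists were chosen with earlier results of these data known. Named were all members, plexins and neuropilins, up to 4 genes of smallest p in each other list, and the genes of highest r; 1 gene that this rule names is not reported here. Alternatives were an exact Mann-Whitney test, a floor of 16, a pseudocount of 50, no filter or one of 200, quantile or median scaling, a trend, array weights, replicate numbers as a block, and single arrays left out. Leaving out arrays with liver or heart transcripts or low nerve-related genes was chosen after seeing the data. Precision is limited by the number of arrays. The sources used here give no batch. Plots were made in Python 3.11.15 (matplotlib 3.10.9).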

Additional observations from a re-analysis of the deposited data

Results flagged for a closer look

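Of 70 groups of KCASP1Tg or WT signals checked, 7 held an array far from the others by Dixon's criterion, which chance meets in about 1 in 20 groups. KCASP1Tg 4 was the array in 5 of the 7. On it Sema3a was at 385 by 1420416_at, against 149 to 202 on the other KCASP1Tg arrays, and at 262 by 1449865_at, against 65.9 to 108. Sema3c 1429348_at was at 828 there, against 1935 to 2492 on the other KCASP1Tg arrays, Sema3f 1425840_a_at at 167, against 289 to 355, and Sema3g 1435361_at at 375, against 573 to 657. Sema6a 1421414_a_at was at 28.5 on KCASP1Tg 5, against 102 to 159 on the other KCASP1Tg arrays. The receptor Plxna3 was at 231 on KCASP1Tg 3, against 516 to 779 on the other KCASP1Tg arrays.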

How the results depend on the processing

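The Sema6b difference kept its sign under all 23 alternatives. It was 1.19 with a pseudocount of 50, 2.25 to 2.53 with each array left out and 2.20 with the replicate block. The number of member probe sets called, a description since they were selected on this difference, was 1 with all arrays. It was 0 with a signal of at least 200 (where Sema6b was not tested), with the exact Mann-Whitney test, whose smallest p of 0.00952 cannot pass the adjustment here, with the replicate block, without WT 1 and WT 3, and without WT 4, KCASP1Tg 1 and KCASP1Tg 2, which leave fewer arrays, and 2 with array weights, which added Sema3f 1420508_at (0.77). With each array left out it was 1. With a pseudocount of 50 Sema3f 1420508_at differed by 0.65. Over all probe sets, 18 were higher in KCASP1Tg aorta, and 204 with array weights, 0 with the exact Mann-Whitney test, 0 with the replicate block, 0 without WT 1 and WT 3, 2 without WT 4, KCASP1Tg 1 and KCASP1Tg 2, and 10 (without KCASP1Tg 1) to 61 (without KCASP1Tg 4) with each array left out, with 39 without KCASP1Tg 6. The count of lower probe sets was 0, against 898 at an unadjusted p under 0.05, and was 1 with a floor of 16, 2 with a pseudocount of 50, 2 with no filter, 3 with a signal of at least 200, 1 with quantile normalization, 3 with an intensity trend, 63 with array weights, 1 without WT 4 and KCASP1Tg 3, and 0 to 8 with each array left out (8 without KCASP1Tg 4, and 2 each without KCASP1Tg 6, WT 2 or WT 4). The cause of these shifts was not tested. Of the other pathway genes 0 were called, 2 with array weights (Sema3e, at -0.88 with a limma adjusted p of 0.0152, and Vegfc, at -0.63 with 0.0203), and 0 to 1 with each array left out (Sema3e without WT 4). The limma adjusted p of Vegfc was 0.0507 without KCASP1Tg 4. Plexin and neuropilin calls were 0 under all 23 alternatives, among them the exact Mann-Whitney test, which could not call any. KCASP1Tg and WT arrays of the same number had r of 0.11, -0.31, -0.43 and -0.33 between their deviations. Arrays of different number had r from -0.54 to 0.58. With so few arrays, these r cannot show whether the numbers pair mice, and the main fit used no pairing. The signs of 17 of the 24 member probe sets held under all 23 alternatives.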

Other observations

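Plexin-A1, the receptor of Sema6d, has a dim probe set, 1421232_at, that did not pass the signal filter and was picked out after its values were seen. Its signal was 33.5 to 80.3 on the KCASP1Tg arrays, against 13.8, 11.2, 20.3 and 20.5 on WT 1 to WT 4, without overlap and with a log2 difference of 1.77. The bright probe set of Plxna1, which was tested, differed by 0.15 (standard error 0.19) with KCASP1Tg and WT arrays that overlapped. Timd2, a receptor of Sema4a in mice, did not pass the filter, with a mean of 22.2 ± 19.0 in KCASP1Tg aorta (SD, n = 6) and 98.3 ± 106 in WT aorta (SD, n = 4). The KCASP1Tg signals were 3.04 to 44.9, and those of WT 1 to WT 4 were 256, 22.2, 58.5 and 56.7. The groups overlapped, and WT 1, at 256, was also the array with the highest liver sum.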
